A study of Mus musculus with 36 samples.

Results

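The comparison described here set Control 24h against Control 2h, that is, open chromatin in B3 cells carrying the empty vector after 24 h and after 2 h of 4-hydroxytamoxifen. B3 is a mouse pre-B lymphocyte line that models the pre-BI stage. All 52788 DNase hypersensitive sites (DHS) of the table were taken, in 6 of its 36 libraries, 3 at each time. Per the study's methods, the retroviral vector of these cells encoded the hormone-binding domain ERt2 with GFP behind an IRES and lacked Ikaros, which the Ikaros line carries as a fusion to ERt2. The transduced cells were sorted on GFP and expanded, so the line is a pool of infected cells. The labels give 0.5 µM of the drug, called 4-OHT there, for each library, and replicates 4, 5 and 6 belong to batches 11, 12 and 13. The Ikaros 24h and Ikaros 2h libraries, 3 of each from the same batches, served for comparison, as did the other control times.

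The label of this comparison speaks of culture time, but the methods describe a different variable. The drug was added to separate flasks at different times and the flasks of a batch were harvested together, so the groups differ in the hours of exposure to the drug. Per the methods, the 0 h cells were obtained in batches of their own and received no drug, while the labels name the drug for them as well and place them in batches 11, 12 and 13 with the others. Which holds bears on Control 2h minus 0h and on fits with the batch. The effects of exposure and of any handling that went with it cannot be told apart here.

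DNase I cuts DNA where nucleosomes are displaced, and the short fragments released mark promoters, enhancers and sites bound by factors such as CTCF, which anchors chromatin loops and insulates neighbouring domains. 4-hydroxytamoxifen is the active metabolite of tamoxifen and binds oestrogen receptors. The ERt2 domain was engineered to answer this drug, which moves a fused factor from the cytoplasm to the nucleus. Tamoxifen and its metabolites are also known to interfere with late steps of sterol synthesis and to accumulate in lysosomes. A control line with ERt2 alone can show effects of the drug without Ikaros, through ERt2 or not. Both groups compared here had the drug, so an effect complete by 2 h and unchanged later is not seen in their difference.

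Few DHS passed the test of a difference between the times. Of 52788 DHS, 5 (0.00947%) passed an adjusted p of 0.05 in limma's two-sided test, which was fitted to all 36 libraries. Higher at 24 h were 4 of them (0.00758%) and lower was 1. An unadjusted p under 0.05 was reached by 3440 DHS (6.52%), of which 1867 were higher and 1573 lower. The values of the 3 replicates did not overlap between the times at 4197 DHS (7.95%), with 1508 higher (2.86%) and 2689 lower (5.09%). For exchangeable values, 3 against 3, such separation has a probability of 0.1, so this share is not above that reference. The median difference over all DHS was -0.019 on the log2 scale, the SD of the differences was 0.38, and 97.7% of DHS differed by less than 1.

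The count of 5 changed with the libraries fitted and with how the spread was estimated. Without the Ikaros libraries, or with only the 6 libraries of the comparison, 0 DHS passed limma's adjusted threshold, with 1932 and 1686 at an unadjusted p under 0.05, and 0 passed when each group was given its own spread, with 1640. With the batch as a replicate block, 3 passed. The count was 0 without Control 24h replicate 5 or replicate 6 and 21, 143 and 107 without Control 2h replicates 4, 5 and 6. The 95% confidence interval of the difference, from the spread shared by all groups, reached a median of 0.58 to either side. It lay wholly between -1 and 1 at 67.2% of DHS but between -0.5 and 0.5 at only 13.3%.

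The sequences of the called DHS are shown because they are the sites the test singled out, and to show which short words of known factors they hold. They were read from GRCm38, the assembly also called mm10, on the plus strand. The fifth DHS lies in the 3′ untranslated part of Slc25a15 and is not printed. Capitals mark matches to short words of known factors: AGGGGGC from the core of the CTCF site, with the related words AGGTGGC as well as AGAGGGC and also the word AGATGGC, then TGANTCA of AP-1, TGTGGT of Runx, the E-box CACCTG and, for Ets factors, AGGAAGT. Both strands were searched.
chr2:130578279-130578409, near Oxt: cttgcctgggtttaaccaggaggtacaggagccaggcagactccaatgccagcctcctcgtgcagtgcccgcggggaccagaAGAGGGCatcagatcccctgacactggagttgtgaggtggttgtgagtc
chr10:20777157-20777302, Gm48651: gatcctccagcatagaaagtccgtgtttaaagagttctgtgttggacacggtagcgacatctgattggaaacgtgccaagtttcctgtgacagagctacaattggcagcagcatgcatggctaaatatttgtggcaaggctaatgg
chr1:171193222-171193352, Pcp4l1: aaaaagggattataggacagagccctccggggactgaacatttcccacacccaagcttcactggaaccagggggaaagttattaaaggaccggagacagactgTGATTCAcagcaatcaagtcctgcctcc
chr6:120641876-120642032, near Cecr2: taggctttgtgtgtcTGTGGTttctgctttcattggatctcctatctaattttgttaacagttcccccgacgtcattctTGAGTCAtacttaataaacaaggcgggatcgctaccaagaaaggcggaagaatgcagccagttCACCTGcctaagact
The Oxt site held a CTCF word and the Cecr2 site an AP-1, a Runx and an E-box word. The Pcp4l1 site held the AP-1 word as TGATTCA, whose middle letter is not the G or C usual in AP-1 sites. The Gm48651 and Slc25a15 sites held none of them, which says only that these letters are not in these windows.

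The DHS on chromosome 2 lies between genes, 2107 bp from the start of Oxt, which encodes the neuropeptide oxytocin. Its log2 density was 3.59, 3.57 and 3.27 in the Control 2h libraries, replicates 4 to 6, and 5.02, 4.93 and 5.33 in the Control 24h libraries. Each 24 h value was above each 2 h value, and the groups were set far apart relative to their spread. The mean rose by 1.62 on the log2 scale (SE 0.25, limma, Benjamini-Hochberg adjusted p = 0.0114), which is 3.07-fold. From 2 h to 24 h the control means were 3.48, 4.43, 5.16, 5.24 and 5.09. The 0 h mean of 4.43, however, was above that at 2 h.

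The DHS on chromosome 10 lies in an intron of the long non-coding RNA gene Gm48651. It gave 0.17, 1.28 and -0.04 at 2 h and 3.12, 3.50 and 3.45 at 24 h. The 2 h libraries were low by the standard of the table, and the groups did not overlap. The rise was 2.89 (SE 0.45, limma adjusted p = 0.0114), or 7.41-fold. The 0 h mean was 3.93 and the means from 6 h on were 2.69, 3.29, 3.37 and 3.36, so the 2 h group alone lay below 2.

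The DHS on chromosome 1 lies in an intron of Pcp4l1, a paralogue of the calmodulin regulator Pcp4. Its values were 1.84, -0.23 and 1.26 at 2 h and 2.59, 3.49 and 3.69 at 24 h. The groups did not overlap, but the 2 h replicates were spread over more than 2 log2 units. The rise was 2.30 (SE 0.41, limma adjusted p = 0.0477), and here too the 0 h mean, 3.33, was close to the 24 h mean, 3.26.

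The DHS on chromosome 8, at chr8:22377057-22377187, lies in the last exon of Slc25a15, which encodes the mitochondrial ornithine carrier of the urea cycle. It gave 2.65, 3.87 and 3.28 at 2 h and 4.73, 4.51 and 4.67 at 24 h. The 24 h libraries agreed closely and all lay above the 2 h libraries. The rise was 1.37 (SE 0.25, limma adjusted p = 0.0477), from a 2 h mean of 3.27 that was the lowest of the control times.

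The single fall was on chromosome 6, between genes and 24389 bp from the start of Cecr2, a subunit of chromatin remodelling complexes. The values were 4.89, 4.21 and 4.30 at 2 h and 3.12, 3.18 and 2.67 at 24 h. The groups did not overlap. The mean fell by 1.48 on the log2 scale (SE 0.26, limma adjusted p = 0.0452). The control means started at 3.99 and 4.47, for 0 h and 2 h, then reached 3.51 at 6 h and stayed between 2.78 and 3.17 later.

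The values of the Ikaros line are given beside these as a description, since the 5 DHS were chosen for their control difference and only 6.54% of the Ikaros contrast, against 64.6% of the control contrast, lies in the 6 dimensions that the 12 deposited group means span. Ikaros 24h minus Ikaros 2h was -0.09 at the Oxt site, 0.39 at Gm48651, -0.11 at Pcp4l1, -0.27 at Slc25a15 and 0.36 at the Cecr2 site, and no DHS of the table passed in that line (0%; 37 had an unadjusted p under 0.05). The test of the difference between the lines did not pass either, at these DHS or at any other (0%; limma, smallest adjusted p = 0.54, with 1503 DHS at an unadjusted p under 0.05).

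**Figure D1:**
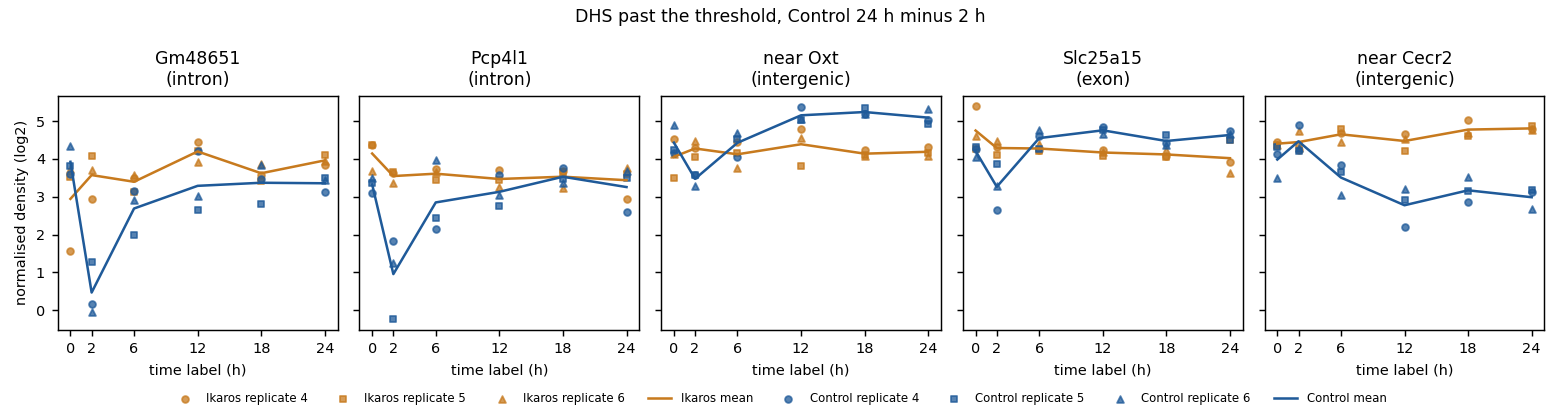
Normalised density (log2) against the time label (h) at the 5 DHS past the threshold, with control libraries in blue, Ikaros libraries in orange, 1 marker shape per replicate and lines through the group means. At the 4 that rose, the Control 2h mean was the lowest of the control times, and the site near Oxt stayed above 5 from 12 h on.

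The naming rule, 10 DHS in each direction without overlap between the groups, added 6 rises and 9 falls that did not pass, with adjusted p between 0.0629 and 0.207 (limma). The largest of the higher ones lay in an intron of the long non-coding RNA genes 9230020A06Rik and Gm33351 (chr11:71557519-71557649), with values of -0.13, 0.06 and 3.33 at 2 h and 3.93, 3.95 and 3.71 at 24 h. Its 2 h replicates disagreed by more than 3 log2 units, so the difference of 2.78 rests on 2 libraries. The other higher ones included intronic DHS of Zfp385c, a zinc finger gene (difference 2.16), Kndc1, a neuronal exchange factor of the Ras pathway (1.26), and Rbpms2, an RNA-binding protein of smooth muscle (1.48).

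Among the lower ones that did not pass, an intronic DHS of Ninj2, a cell surface adhesion molecule, had close replicates (chr6:120154997-120155140). It gave 4.52, 4.60 and 4.64 at 2 h and 3.53, 3.41 and 3.72 at 24 h, a difference of -1.03 (SE 0.21, limma adjusted p = 0.0984). The groups did not overlap, and the same site was at 4.27 at Ikaros 2h and 4.70 at Ikaros 24h. An intronic DHS of Icosl, the ligand of the T cell co-stimulator ICOS on B cells, differed by -1.40 (chr10:78074334-78074464). Its means were 4.63 at 2 h and 3.23 at 24 h, and the 0 h mean of 4.00 lay between them. A DHS 34091 bp from the start of Lpl, the lipoprotein lipase, had the largest negative difference, -2.04, and a DHS 7440 bp from Mmp13, a collagenase, differed by -0.88. The Lpl site gave 5.04, 4.07 and 3.19 at 2 h and 2.01, 2.29 and 1.89 at 24 h. All 2 h values were higher, but the 2 h replicates were themselves far apart.

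The 20 named DHS shared some traits, not all of them separate from the rule. At most 200 bp wide were 19 of them, against 46.1% of all DHS, and 0 were promoter DHS, against 25.9%. The mean replicate SD at Control 2h was 0.64 at DHS of at most 200 bp and 0.35 at wider ones. At promoter DHS it was 0.37, beside 0.48 over all DHS, so a rule that takes extreme differences bears on both shares. All 20 had the same sign in each of the 3 batches, which the lack of overlap already implies. At 20 of 20, the Control 2h mean was the lowest (for rises) or highest (for falls) of the 6 control times. The rule chose low or high 2 h values, so that count is a description. Control 24h minus Control 0h ran from -0.57 to 0.66 at the 10 DHS higher at 24 h and from -1.49 to -0.32 at the 10 lower ones, so the lower ones were all below their 0 h mean as well. At the lower ones the rule chose low 24 h values, so that too is a description.

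The other control times gave more calls against 2 h than 24 h did. These comparisons share the Control 2h samples, so their values are only set side by side. Control 6h minus 2h gave 62 calls (0.117%), Control 12h minus 2h gave 57 (0.108%) and Control 18h minus 2h gave 76 (0.144%). Control 2h minus 0h gave 159 (0.301%), of which 117 were lower at 2 h. Away from 2 h, by contrasts added after the data were seen, the 24 h libraries differed from the others at almost no DHS: 2 against 6 h (0.00379%), 0 against 12 h (0%) and 0 against 18 h (0%), with 1923, 1 and 569 at an unadjusted limma p under 0.05. The F-test over 2 h to 24 h called 49 DHS (0.0928%), all 5 of the DHS above among them, and 24 h was above 2 h at 27 of the 49.

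The 5 DHS with the smallest p in that F-test were the Oxt, Ninj2 and Gm48651 sites, a DHS 22980 bp from Lpl (chr8:68857381-68857511) and a DHS far from any gene on chromosome 14 (chr14:110892992-110893121). The second Lpl site was at 1.10, 1.52 and 0.94 at 2 h and 2.50, 2.79 and 2.64 at 24 h (difference 1.46, limma adjusted p = 0.104 for this pair of times), which is opposite in sign to the other DHS near Lpl. Its highest control mean, 3.59, was at 6 h. On chromosome 14 the means at 2 h and 24 h were 2.39 and 2.23, and the test rested on 6 h, where the mean was 4.25.

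The deposited means are not independent of each other, which bears on all of these counts. The 12 group means span 6 of 11 possible dimensions. The difference between Control 24h and Control 2h is therefore equal, at each DHS, to a weighted sum in which Control 2h has a weight of -0.99, Control 12h of 0.39, Control 24h of 0.31 and Control 18h of 0.20, with the other groups between -0.08 and 0.10. For Control 6h minus 2h, 97.9% of the contrast lies in the dimensions kept. The 24 h values are thus tied to the 12 h and 18 h libraries, and the small differences between 24 h and 12 h, with an SD of 0.14, cannot be told apart from the noise correction.

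**Figure D2:**
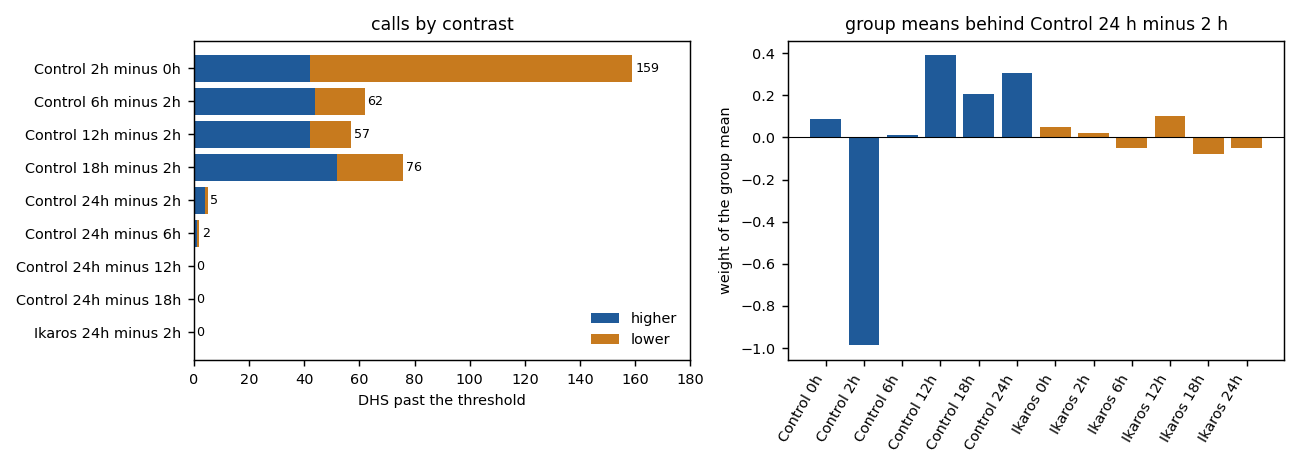
Left, number of DHS past the threshold in each contrast, higher in blue and lower in orange. Right, the weight of each of the 12 group means (control blue, Ikaros orange) in the sum that equals Control 24h minus 2h, where Control 2h stands at -0.99 and the positive weight is split over 12 h, 18 h and 24 h.

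The Control 2h replicates had the largest mean spread at single DHS of the 12 groups. Across DHS, Pearson's r was between 0.63 and 0.65 for pairs of Control 2h libraries and between 0.79 and 0.81 for pairs of Control 24h libraries. Across the times it was between 0.68 and 0.76, so each Control 2h library was more like each Control 24h library than like its own replicates. Lower values of r were found at 0 h, down to 0.57 at Control 0h and 0.59 at Ikaros 0h. The mean SD of 3 replicates was 0.48 at Control 2h, the highest of the 12 groups, against 0.32 at Control 24h and between 0.23 and 0.25 in the Ikaros groups from 2 h on. At 68.8% of DHS the SD was larger at 2 h than at 24 h. The SD of a library over its DHS was 0.97 ± 0.092 at 2 h and 0.88 ± 0.048 at 24 h (SD, n = 3; exact two-sided permutation p = 0.2, where 0.1 is the smallest possible).

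The differences varied between batches. Within a batch, Control 24h minus Control 2h exceeded 1 in size at 16.9% of DHS in batch 11, 10.2% in batch 12 and 11.6% in batch 13. The median within-batch difference was -0.057, -0.029 and -0.034. Across DHS, these differences correlated at -0.087 between batches 11 and 12, at -0.11 between 11 and 13 and at -0.038 between 12 and 13 (Pearson's r, as a description; the DHS share libraries). The sign was the same in all 3 batches at 20.4% of DHS, with 4200 higher and 6590 lower. Signs drawn at random and independently in each batch would agree at a larger share of DHS.

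**Figure D3:**
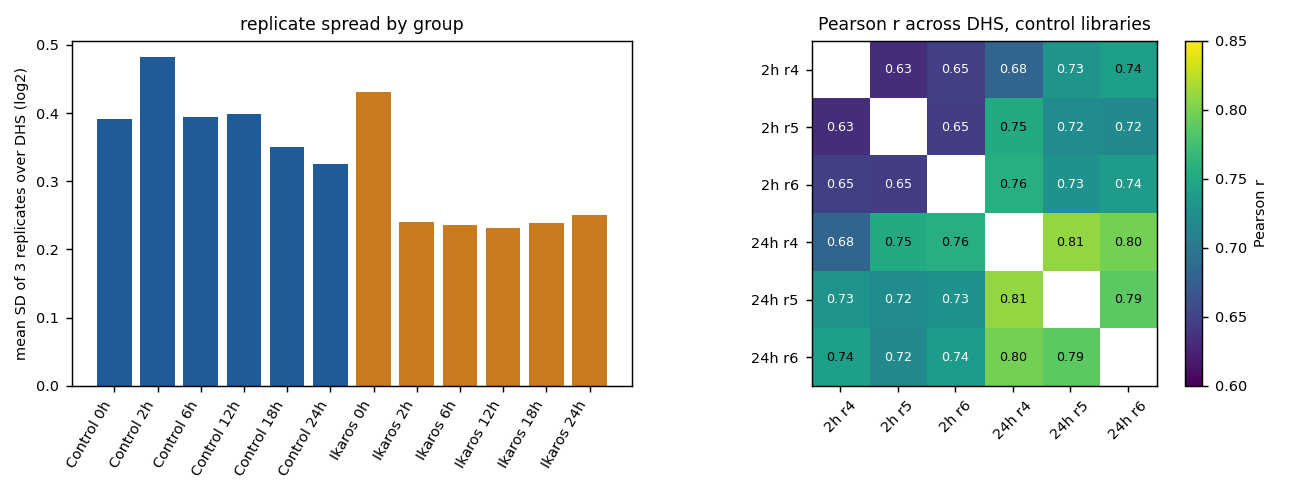
Left, mean SD of the 3 replicates over all DHS (log2) in each of the 12 groups. Right, Pearson's r across DHS for pairs of the 6 libraries (r4 to r6 are the replicates); the 2 h pairs lie at 0.63 to 0.65 and the 24 h pairs at 0.79 to 0.81.

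By annotation, the medians of the libraries hardly moved. The library median of promoter DHS (within 1000 bp of a transcription start) was 4.78, 4.54 and 4.59 at 2 h and 4.62, 4.55 and 4.59 at 24 h. Replicate 4 at 2 h stood above the others and the groups overlapped. The difference was -0.045 for promoters, 0.0074 for exons, -0.033 for introns and -0.026 between genes, with exact permutation p between 0.7 and 1. These differences are well inside the spread of single libraries.

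The size of the differences varied with annotation, width and base composition, and the replicate spread varied in the same order. The SD of the differences was 0.27 at promoter, 0.35 at exon, 0.42 at intron and 0.41 at intergenic DHS, and it ran from 0.42 in the 20% of DHS poorest in GC to 0.29 in the 20% richest. Narrow DHS, of at most 200 bp, had an SD of differences of 0.49 and held all 5 calls, while broad DHS had 0.24. The mean replicate SD at Control 2h was 0.37 at promoter, 0.46 at exon, 0.53 at intron and 0.52 at intergenic DHS. It was 0.64 at narrow and 0.35 at broad DHS, and 0.54 in the 20% poorest in GC against 0.40 in the 20% richest. At an unadjusted p under 0.05, 1400 of 24315 narrow DHS (5.76%) were higher at 24 h and 816 (3.36%) lower, and 467 of 28473 broad DHS (1.64%) were higher and 757 (2.66%) lower. Over all DHS the shares were 3.54% and 2.98%. Without overlap between the groups, 895 narrow DHS were higher and 1187 lower, and 613 broad DHS were higher and 1502 lower. Over all DHS these shares were 2.86% and 5.09%, so the direction in narrow DHS depended on the measure. The 20% of DHS poorest in GC (up to 43.7%) had library medians of 3.42, 3.65 and 3.66 at 2 h and 3.39, 3.49 and 3.48 at 24 h. The 24 h libraries tended to the lower values, with 1 Control 2h library between them, and the difference of -0.12 did not pass (exact permutation p = 0.3 over the 6 library medians). In the other 4 GC classes the difference was between -0.039 and -0.00028.

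**Figure D4:**
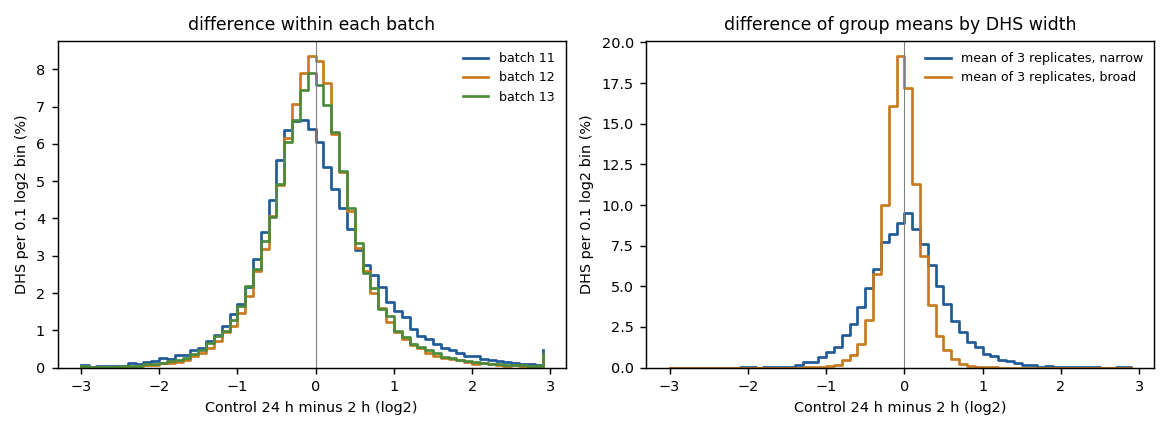
Share of DHS (%) per 0.1 log2 of Control 24h minus 2h; differences beyond 3 are counted in the end bins. Left, within batches 11, 12 and 13; right, the group means for DHS of at most 200 bp (narrow) and wider ones (broad), where the narrow curve is the wider of the pair, with an SD of 0.49 against 0.24.

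CTCF words were more frequent where the value was higher at 24 h, but not without 1 Control 2h library. The words were chosen after sequences and values had been seen and were searched in the central 120 bp. They occurred in 34.3% of all narrow DHS, in 39.8% of the 895 narrow DHS higher without overlap and in 27.5% of the 1187 lower ones. In broad DHS the shares were 36.02%, 48.1% and 27.7%. The median difference of narrow DHS was 0.076 with a CTCF word and -0.0093 without. Relative to the mean of all libraries, narrow DHS with the word were 0.20 below those without it in Control 2h replicate 4, but 0.075 and 0.094 above in replicates 5 and 6, and 0.050, 0.082 and 0.12 above in the Control 24h libraries. Without Control 2h replicate 4, the gap between narrow DHS with and without the word went from 0.085 to -0.0094. In broad DHS it went from 0.050 to -0.076. The words were then in 33.3% of the 1937 narrow DHS higher without overlap and in 35.7% of the 2977 lower ones.

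The other words did not share a direction, and their shares were not matched for GC either. The E-box was in 11.5% of narrow DHS, 13.4% of the higher and 8.26% of the lower ones. Without Control 2h replicate 4, its gap in the median difference went from 0.054 to 0.044 in narrow DHS. In broad DHS that gap went from 0.036 to -0.010. The Ets word was in 10.4%, 8.16% and 12.8% and thus more frequent in the lower ones. Without Control 2h replicate 4 the Ets shares were 9.96% of the higher and 10.8% of the lower ones, and the gap in the median difference went from -0.074 to -0.0075. AP-1 words were in 4.93% of narrow DHS, 5.59% of the higher and 5.73% of the lower ones, and Runx words in 17.6%, 17.4% and 19.7%.

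No promoter DHS passed the test (0 of 13656), and 524 reached an unadjusted p under 0.05, 261 higher and 263 lower. Of the 10 promoter DHS with the smallest p, all higher at 24 h, 3 are given here, chosen after their values were seen. They lay at Tulp4, a substrate adaptor of ubiquitin ligases, with means of 2.45 at 2 h and 4.18 at 24 h (difference 1.73, limma adjusted p = 0.0984), and at Brd1, a subunit of histone acetyltransferase complexes, with 2.95 and 4.05 (difference 1.09, limma adjusted p = 0.147). The one shared by Pop1, a subunit of RNase P, and Rida was higher by 0.63 (limma adjusted p = 0.259), with 24 h replicates that differed little (SD 0.11).

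Pre-B cell genes were accessible at both times. Of 20 pre-B genes, 16 had at least 1 promoter DHS, 21 in all, with a median difference of 0.021 and 0 past the test. Mean levels of these DHS over the series ran from 3.51 at Syk to 5.99 at Ebf1, with a median of 4.73. Ebf1 and Pax5 (5.78), the factors that set B cell identity, and the surrogate light chain genes Igll1 (5.24) and Vpreb1 (5.20) were in the upper part of that range, and Rag1 (3.91) and the lower of the Vpreb2 DHS (3.75) in the lower part. The differences at Ebf1, Pax5, Igll1 and Vpreb1 were -0.039, 0.11, -0.080 and 0.088. Of 14 T cell markers 3 had a promoter DHS, at Tcf7, Gata3 and Lat, with mean levels of 3.92, 4.53 and 4.38, inside the range of the pre-B genes, and differences of -0.22, -0.34 and -0.035. Of 14 myeloid and erythroid markers, Lyz2 and Klf1 had a promoter DHS, with mean levels of 3.29 and 4.58. Of 12 markers listed as non-haematopoietic, Col1a1 had one at 3.96. Pecam1, which blood cells also express, had DHS at 4.44 and 4.31, the latter also at the start of Milr1. All of these levels but that of Lyz2 were inside the range of the pre-B genes. The other markers, Cd3e, Cd4, Csf1r, Alb and Myod1 among them, had no DHS within 1000 bp of a start in this table.

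Of the genes that bear on the drug, none had a promoter DHS that passed. Of 31 promoter DHS at genes of sterol synthesis and uptake, the median difference was -0.049, beside -0.034 for all promoter DHS, 11 were above 0, and 0 passed. Dhcr7, the last reductase of cholesterol synthesis, had the smallest p (means 5.30 at 2 h and 4.99 at 24 h; difference -0.31, limma adjusted p = 0.734). Its other promoter DHS differed by -0.10 and 0.13. Of 12 promoter DHS at oestrogen receptor genes and targets, the median was -0.036. Esr2, the beta receptor, differed by 0.56 (adjusted p = 0.725, limma) and Xbp1, a target of the receptor that also drives the unfolded protein response, by -0.65 (adjusted p = 0.686, limma). Another Xbp1 promoter DHS differed by -0.029.

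The stress lists also held no call. The median was 0.022 over 18 promoter DHS of the unfolded protein and amino acid stress list, -0.015 over 18 of the xenobiotic and antioxidant list, -0.079 over 15 of the heat shock list and 0.034 over 30 of the lysosome and autophagy list. In the last, Gabarapl2, which acts in autophagosome maturation, had the smallest p of any listed promoter, with means of 3.75 and 4.72 (difference 0.97, limma adjusted p = 0.487). A further Gabarapl2 promoter DHS differed by 0.24. Hmox1, the haem oxygenase induced by oxidants, differed by 0.34 and Herpud1, a factor in the degradation of misfolded proteins, by 0.52, both without passing. At Herpud1 another promoter DHS differed by -0.22.

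The growth and death lists held no call either. The medians were 0.0078 over 34 promoter DHS of cell cycle genes, -0.0075 over 16 of p53 targets, -0.025 over 27 of apoptosis regulators, 0.015 over 34 of glycolysis and hypoxia genes, -0.080 over 29 of immediate early genes and -0.054 over 93 at genes named Rpl or Rps with a number. Of these 93, 15 lie at S6 kinase genes or Rps19bp1, which the name pattern also took, and the other 78, at ribosomal protein genes, had a median of -0.052. Bbc3, the BH3-only killer PUMA, had the smallest p among the p53 and apoptosis lists (means 4.23 and 4.80; difference 0.57, limma adjusted p = 0.541). Its other promoter DHS differed by -0.13 and -0.11. Egln1, the oxygen sensor that marks HIF for degradation, had the largest difference, -1.01 (limma adjusted p = 0.712), while another Egln1 promoter DHS differed by 0.0011. Fosl2, a subunit of AP-1, differed by -0.30 (limma adjusted p = 0.695) and by 0.046 at another promoter DHS. The list of DNase I titration loci and Ikaros family genes had 3 promoter DHS, with a median of -0.080. They lay at the titration loci Igll1 and Ap2a1 and at Ikzf5, a family member that was not used for titration, and Ap2a1 was the most open, with means of 6.63 and 6.42.

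**Figure D5:**
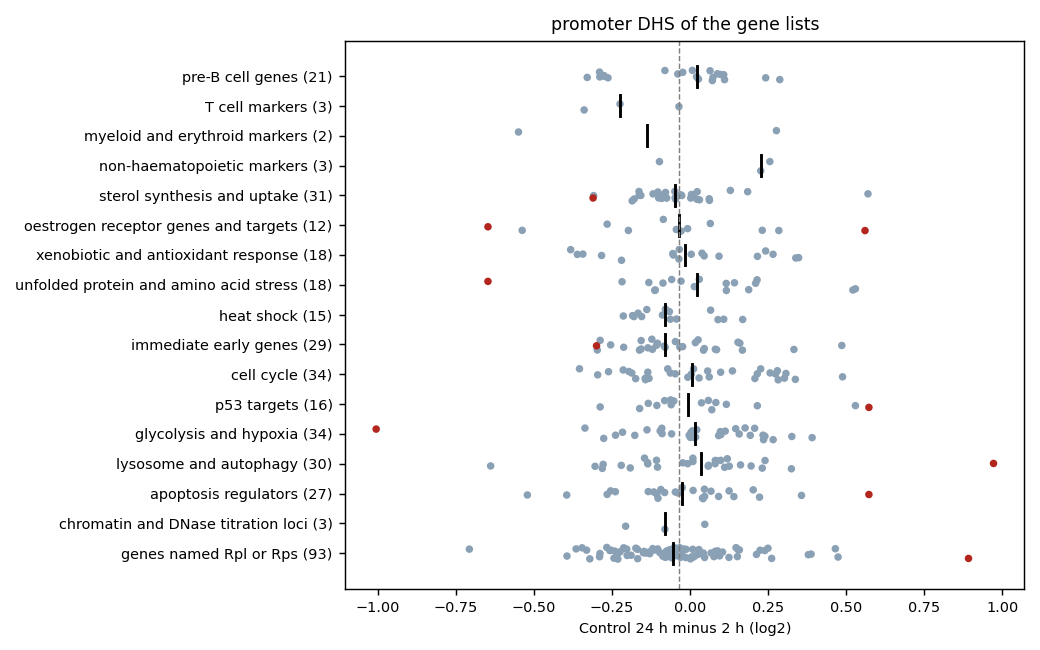
Control 24h minus 2h (log2) of each promoter DHS in the gene lists, with the number of DHS in brackets, the list median as a black bar, the median of all promoter DHS as a dashed line and unadjusted p under 0.05 in red. List medians lie near 0 except where a list has 2 or 3 DHS, and 0 DHS passed the adjusted test.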

How the data were processed

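As the study's methods state, reads were trimmed and mapped by the authors (mm10, Bowtie2), peaks of 2 sizes were found by HOMER and merged over replicates and times. They counted reads per DHS with bedtools, dropped low DHS, scaled by RPKM and TMM, and applied ARSyN, which removes structured noise given the groups. The deposited values are log2 densities after these steps. The limma p-values take them as they are and do not allow for the noise correction, so their calibration is unknown. Counts were not used here, so depth per library is unknown, no counting interval is given, and the number of libraries limits precision.

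The values were fitted with limma 3.58.1 (R 4.3.3; lmFit, contrasts, eBayes with an intensity trend) over 36 libraries and 12 group means, with Benjamini-Hochberg adjustment over 52788 DHS at 0.05. Library medians were compared by exact permutation. DHS were annotated with GENCODE vM21. Widths are end minus start; printed sequences include both ends, since the counting of starts is not stated, which leaves 1 bp open. In simulated data for this comparison, 71 of 100 DHS changed by 2 and 28 of 100 changed by 1 (log2) were recovered among 52788, with 4 false calls. The simulated noise was independent and had the same SD in all groups at a DHS. In the data the mean replicate SD was 0.48 at Control 2h and 0.32 at Control 24h, so these counts do not carry over directly.

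Replicate numbers mark shared batches in the labels. Same-numbered Control 2h and Control 24h libraries deviated from their group means with r = -0.21, -0.015 and -0.038 across DHS. Named were 10 DHS without overlap in each direction, by size among those past the threshold and then by unadjusted p, the 5 with the smallest F-test p, and per list the members with the smallest p. The comparison, gene lists and rules were chosen with earlier results of these data known. Alternatives were batch, fitted libraries, scaling, filter, weights, and left-out libraries.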

Additional observations from a re-analysis of the deposited data

How the results depend on the processing

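Of the alternatives tried, the count of 5 DHS for Control 24h minus 2h became 3 with the replicate block, 0 with only the 18 control libraries, 0 with only the 6 libraries, 11 without the 0 h groups, 0 after quantile normalization, 8 with libraries centred on their median, 2 with trends of level, GC and width removed, 1 without the lowest 25% of mean values, and 0 with weights per library or a spread per group. It ran from 0 to 143 when 1 library or replicate number was left out. The F-test count of 49 became 21 with the replicate block, 1 with the control libraries alone, 0 after quantile normalization, 23 with the filter and 0 with either kind of weights, and ran from 29 to 196 without 1 library or number. The interaction count of 0 ran from 0 to 5 in those leave-outs and Ikaros 24h minus 2h stayed at 0. Control 2h minus 0h, 159, became 89 with the replicate block, 1 with control libraries alone, 3 after quantile normalization, 7 with trends removed, 83 with the filter, and 1 with either kind of weights, with 32 to 934 in the leave-outs. The cause of these changes was not tested. None of the 5 called DHS changed sign. The call was lost in 9 of 20 alternatives at the Oxt site, 9 of 19 at Gm48651, 14 of 19 at Pcp4l1, and 15 of 20 at both Slc25a15 and the Cecr2 site.

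Class medians near 0 changed sign readily. After quantile normalization the difference was 0.027 for promoters, 0.0035 for narrow and 0.0023 for broad DHS, 0.032 and 0.030 for level classes 3 and 4 (of 4, from low to high), and 0.023, 0.041 and 0.043 for GC classes 3, 4 and 5 (of 5), and with trends removed it was -0.015 for exons. In the leave-outs it ran from -0.094 to 0.027 for promoters, -0.048 to 0.046 for exons, -0.078 to 0.0046 for introns, -0.088 to 0.016 between genes, -0.055 to 0.015 for narrow DHS, -0.071 to 0.013, -0.037 to 0.0059 and -0.093 to 0.017 for level classes 2 to 4, and -0.11 to 0.0062, -0.062 to 0.044, -0.024 to 0.019 and -0.083 to 0.056 for GC classes 2 to 5. GC class 1 kept its sign, between -0.20 and -0.080. The chromosome 14 DHS, at -0.17, ran from -0.79 to 0.17. Without 1 Control 2h library, the CTCF word gap ran from -0.0094 to 0.13 in narrow and from -0.076 to 0.13 in broad DHS.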
